A study of Mus musculus with 6 samples.

Results

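The CDK inhibitor and retinoblastoma genes were examined in bone marrow (BM) erythroblasts of mice recovering from hemolytic anemia, with and without P38α. The set held 10 of the 34821 gene names on the array, read by 16 of its 55681 probes. Members were taken by gene name: Cdkn1a, Cdkn1b and Cdkn1c of the CIP/KIP inhibitors, Cdkn2a, Cdkn2b, Cdkn2c and Cdkn2d of the INK4 inhibitors, and Rb1, Rbl1 and Rbl2 of the retinoblastoma family. The rule itself uses gene names and no measured value.

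Cyclin-dependent kinases (CDKs) drive a cell from G1 into S phase by phosphorylating the retinoblastoma proteins, which otherwise bind E2F transcription factors and hold replication genes silent. INK4 proteins bind CDK4 and CDK6 and keep D-type cyclins away, while CIP/KIP proteins bind cyclin and CDK complexes, CDK2 complexes above all. Maturing erythroblasts divide rapidly and then leave the cell cycle before they lose the nucleus, and p27, p18, p19INK4d and RB are among the proteins known for a part in that exit.

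Total RNA of 6 sorted CD71highTer119+ erythroblast samples was hybridised, 10 ng each, to 1-colour Agilent whole-genome mouse arrays, with 3 mice per genotype. All mice carried Mx1-Cre, which is switched on by interferon in blood cells and in several other tissues, and all received 3 injections of 300 μg PolyIC at 6 to 8 weeks of age to start excision, then 6 weeks of rest. P38α+/- mice (Mx1-Cre/P38αfl/+) kept an intact P38α allele and served as controls, and P38α-/- mice (Mx1-Cre/P38αfl/fl) did not. Both received a single injection of 100 mg per kg phenylhydrazine (PHZ), which lyses red cells, and cells were sorted on day 4 of recovery. Mice were on a C57Bl/6 background, there were no untreated mice among the arrays, and a sorted gate can hold cells of several maturation stages.

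Between 28.9% and 53.1% of probes were well above background on an array, with the highest share in P38α+/- replicate 1 and the lowest in P38α-/- replicate 1. P38α-/- replicate 3 was alone on another slide and in another scan, so slide and sample cannot be told apart there. All 10 erythroid markers were well above background on all 6 arrays, at a mean log2 level of 4.40 to 4.71 in P38α+/- and 4.39 to 4.76 in P38α-/-. Neutrophil markers (9 of 9 detected on every array) spanned 2.51 to 4.14 in P38α+/- and 1.49 to 2.09 in P38α-/-, with no overlap between the genotypes. B cell markers, of which 1 of 7 was detected on every array, spanned -6.21 to -3.57 and -7.57 to -6.34. Mapk14, the gene of P38α, was not lower in P38α-/-. Its brighter probe read 0.33, 0.58 and 0.61 in P38α+/- and 0.76, 1.19 and 1.20 in P38α-/- (log2 fold change 0.54, SE 0.19, limma adjusted p = 0.186), and the dimmer probe differed by 0.01 (adjusted p = 0.991). The sources used here do not say which exon was excised, so neither probe can serve as a test of the genotype labels.

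Each level below is the log2 signal of a probe minus the 75th percentile of its array, with the percentile taken over probes that every array detected well above background, so that 0 stands for that percentile. Probes bind with different strength, and a level is therefore compared between arrays and never between probes. A probe was tested where it stood well above background on all 3 arrays of a genotype, which held for 9 of the 16 probes and 7 of the 10 genes. Cdkn1c, Cdkn2a and Cdkn2b had no tested probe. The series' design text speaks of pairs of mice, and same-numbered samples were taken as pairs. The intervals, limma p-values and exact permutation p-values below leave this pairing out, except where a replicate block is named.

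Members with several probes are read at different points of their transcripts, and the probe decides which message is counted. The array describes the Rbl1 probes as transcript variants 1 and 2, and does the same for the first pair of Cdkn1a probes, while the last Cdkn1a probe is tied to an Ensembl transcript alone. The first 30 of the 60 bases of each probe are shown as printed on the array, 5′ to 3′ on the sense strand, with no part set in capitals, and positions are in mouse build mm9.
Rbl1 variant 1, chr2:156972143-156972202, minus strand: acactggaggtttagccttctgaagaatca
Rbl1 variant 2, chr2:157000761-157000820, minus strand: ccgagaggaattggaggaggggaaaacttg
Cdkn1a variant 1, chr17:29237377-29237436, plus strand: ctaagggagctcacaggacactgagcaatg
Cdkn1a variant 2, chr17:29227986-29228045, plus strand: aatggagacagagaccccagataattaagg
Cdkn1a Ensembl transcript, chr17:29235299-29235358, plus strand: tggggtagtttccatagtgacccgggtcct
Cdkn1b upstream, chr6:134873606-134873665, plus strand: attagccaagcaaccataagactctagtca
Cdkn1b downstream, chr6:134875424-134875483, plus strand: gtgcttaaaaggttgcatactgagccaagt
Cdkn1c, chr7:150644753-150644812, minus strand: cgtagagcagcccacggttttgtggaaatc
No run longer than 9 bases was shared between the probes of different members, and GC content lay between 35.0% and 55.0% over the 16 probes. Coding sequence and UTRs were not placed on these positions.

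None of the 7 tested members was called at an adjusted p of at most 0.05 and a fold of at least 2, in either direction. Over all 14164 tested genes, 0.134% were called higher in P38α-/- and 0.0353% lower, 24 genes or 0.169% in all (53 when replicate numbers entered the fit as a block, 0 of them members), so a count of 0 among 7 is near the background. At an unadjusted limma p of at most 0.05 the count was again 0 of 7 by each gene's brightest tested probe, against 4.85% of all tested genes higher, 15.2% lower and 20% in either direction. With the replicate number as a block it was 1 of 7, Cdkn1a, whose limma adjusted p was then 0.139. Other alternatives also put a member under 0.05 unadjusted. Cdkn1a had a limma p of 0.0102 with scaling on all probes, 0.0451 with array weights and 0.0216 without P38α+/- replicate 3. Rbl2 had 0.00984 with quantile normalization, 0.0102 in the authors' table and 0.022 with scaling on all probes. Cdkn2c had 0.031 by the methods' t-test. None of these was called. The shares of all tested genes given here belong to the reported fit, so these cases have no background beside them. The members' log2 fold changes ran from -0.24 for Cdkn2d to 0.64 for Cdkn1a, with a median of -0.01, and the smallest adjusted p among them was 0.418. The median tested probe stood at -0.16, and 6 of 7 members lay above it, against 52.2% of all tested genes. In sorted cells measured in bulk, fewer cells of a type and less RNA per cell cannot be told apart.

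For 5 of the 7 genes, Cdkn1b, Cdkn2c, Cdkn2d, Rb1 and Rbl1, the 95% interval of the difference stayed within a 2-fold change either way, as it did for 60.5% of all tested genes. For Cdkn1a and Rbl2 the interval reached past a 2-fold higher level. These intervals depend on the scaling: with the 75th percentile taken over all probes, the median tested probe moved from -0.16 to 0.32, and Cdkn1b, Cdkn2c, Cdkn2d and Rbl1 variant 1 changed sign.

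**Figure D1:**
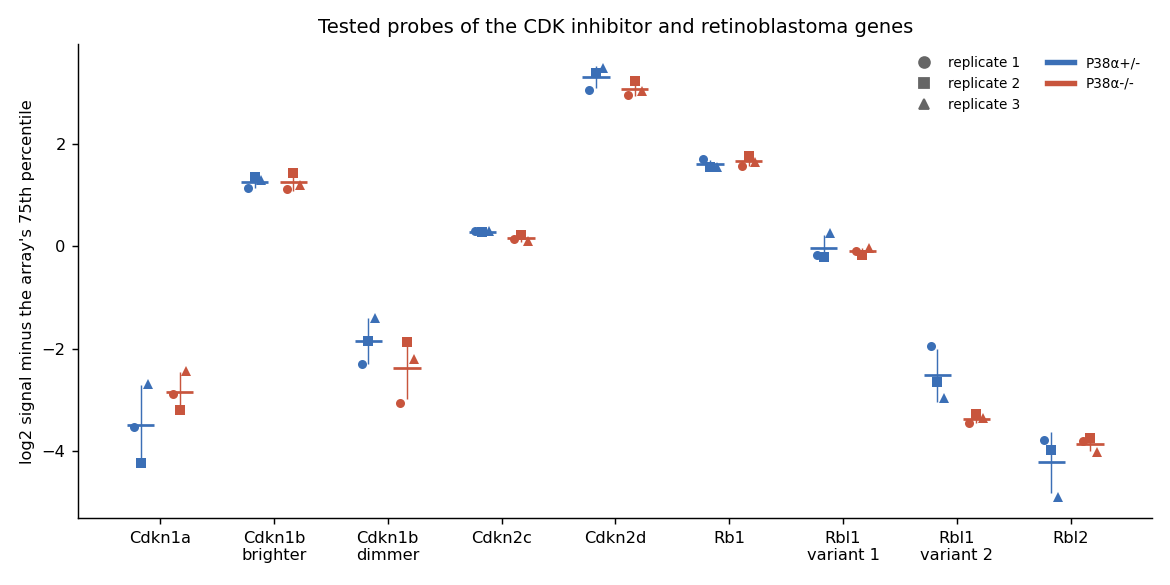
Log2 signal minus the array's 75th percentile for the 9 tested probes on each of the 6 arrays; marker shapes are replicates, horizontal bars means and vertical bars 1 SD (n = 3 per genotype). The genotypes overlap for 7 probes, and P38α-/- arrays lie below all P38α+/- arrays for Cdkn2c and Rbl1 variant 2.

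**Figure D2:**
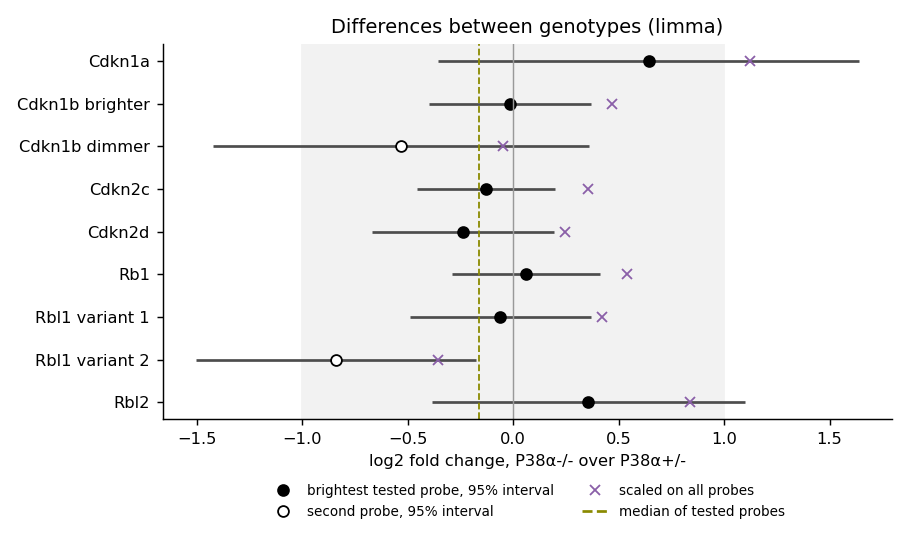
Log2 fold change of P38α-/- over P38α+/- for the 9 tested probes with 95% limma intervals (filled points, brightest probe of a gene; open points, second probe); shading spans a 2-fold change either way, the dashed line is the median tested probe at -0.16, and crosses give the value with scaling on all probes. Crosses stand on the other side of 0 for Cdkn1b (brighter probe), Cdkn2c, Cdkn2d and Rbl1 variant 1.

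Among the CIP/KIP inhibitors, Cdkn1b was the steadiest and Cdkn1a the most variable between mice. Cdkn1b encodes p27, which binds cyclin E and CDK2 complexes and is removed by the SKP2 ubiquitin ligase as cells enter S phase. Its brighter, downstream probe read 1.13, 1.35 and 1.28 in P38α+/- and 1.11, 1.43 and 1.19 in P38α-/-. The ranges overlapped almost fully. The difference was -0.01 (SE 0.16, 95% interval -0.40 to 0.37, adjusted p = 0.972), a fold of 0.99 with an interval of 0.758 to 1.29.

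The upstream Cdkn1b probe was far noisier. It read -2.30, -1.84 and -1.41 in P38α+/- and -3.06, -1.87 and -2.20 in P38α-/-, with replicate 1 the lowest mouse of each genotype. The log2 fold change was -0.53 (SE 0.37, interval -1.42 to 0.36, adjusted p = 0.455). The gap between both probes on the same array shifted by -0.52 in P38α-/- (upstream minus downstream probe, exact permutation p = 0.3), and the ranges overlapped, so the shift was not larger than the spread between mice.

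Cdkn1a encodes p21, the inhibitor induced by p53 and by many stress signals. Its variant 1 probe read -3.53, -4.23 and -2.69 in P38α+/- and -2.89, -3.20 and -2.44 in P38α-/-. The highest P38α+/- mouse, replicate 3, stood above 2 of the 3 P38α-/- mice. The means were -3.48 ± 0.77 and -2.84 ± 0.38 (SD, n = 3), a log2 fold change of 0.64 (SE 0.41, interval -0.36 to 1.64, adjusted p = 0.418), or 1.56-fold with an interval of 0.781 to 3.12. By replicate number, the P38α-/- mouse was higher in 3 of 3 pairs, by 0.65, 1.03 and 0.25. With the replicate number as a block, the SE fell to 0.19 and the limma adjusted p to 0.139.

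The array carried 10 spots of this Cdkn1a probe, and their SD within an array was 0.06 to 0.18, well under the SD between P38α+/- mice. Without P38α+/- replicate 2 the fold change fell to 0.27 (adjusted p = 0.776), without P38α+/- replicate 3 it was 1.04 (adjusted p = 0.148), and under scaling on all probes 1.12 (adjusted p = 0.117). The direction was the same under all 16 alternatives and the call was absent under each. The detection filters, the replicate block and the methods' t-test leave the fold change as it was, so they could not change its direction.

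The other Cdkn1a probes lay near the detection floor, the lowest level that passed as well above background on an array (-6.67 to -6.02 over the arrays). The variant 2 probe read -4.34, -6.02 and -7.76 in P38α+/-, where replicates 1 and 2 were well above background, and -7.48, -8.56 and -6.99 in P38α-/-, where none was. The bound put the level at least 1.36-fold lower in P38α-/-, yet the ranges overlapped (exact permutation p = 0.3). It takes P38α+/- replicate 3 as measured, though that array was not well above background, and so is not a strict limit. The Ensembl transcript probe passed on none of the 6 arrays. Cdkn1a and Mapk14 both lie on chromosome 17, with 342.6 kb between the last Mapk14 probe and the first Cdkn1a probe, that of variant 2. Of 41 tested genes within 1 Mb of the Mapk14 probes, 0 were called, 7 were higher and 7 lower in P38α-/- without overlap (0.169%, 7.43% and 19.7% of all tested genes), and their median log2 fold change was -0.11.

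Cdkn1c encodes p57, an inhibitor best known from quiescent stem cells and from imprinting. It read -5.50, -6.44 and -5.50 in P38α+/- and -7.52, -8.69 and -8.18 in P38α-/-. All P38α-/- mice were lower than all P38α+/- mice. It was well above background in P38α+/- replicates 1 and 3 and in no P38α-/- mouse, so it was not tested in the fit. Only a bound of at least 1.59-fold lower can be given (measured means -5.81 ± 0.55 and -8.13 ± 0.58, SD, n = 3). That bound takes P38α+/- replicate 2 as measured, though it was not well above background, and so is not a strict limit.

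The exact permutation p for Cdkn1c was 0.1, the smallest that 3 against 3 allows with the pairing left out. Among all tested genes 19.7% were lower in P38α-/- without overlap, a share that does not cover untested genes such as Cdkn1c. Its P38α-/- values lay below the detection floors of their arrays (-6.671 to -6.245), so their levels there are not told from background. On the same arrays the mean log2 levels of the neutrophil and B cell markers, given above, were lower in all P38α-/- mice. Those of the megakaryocyte markers overlapped (-4.70 to -3.92 in P38α+/-, -4.97 to -4.39 in P38α-/-). The part of these cells in the Cdkn1c values was not tested.

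**Figure D3:**
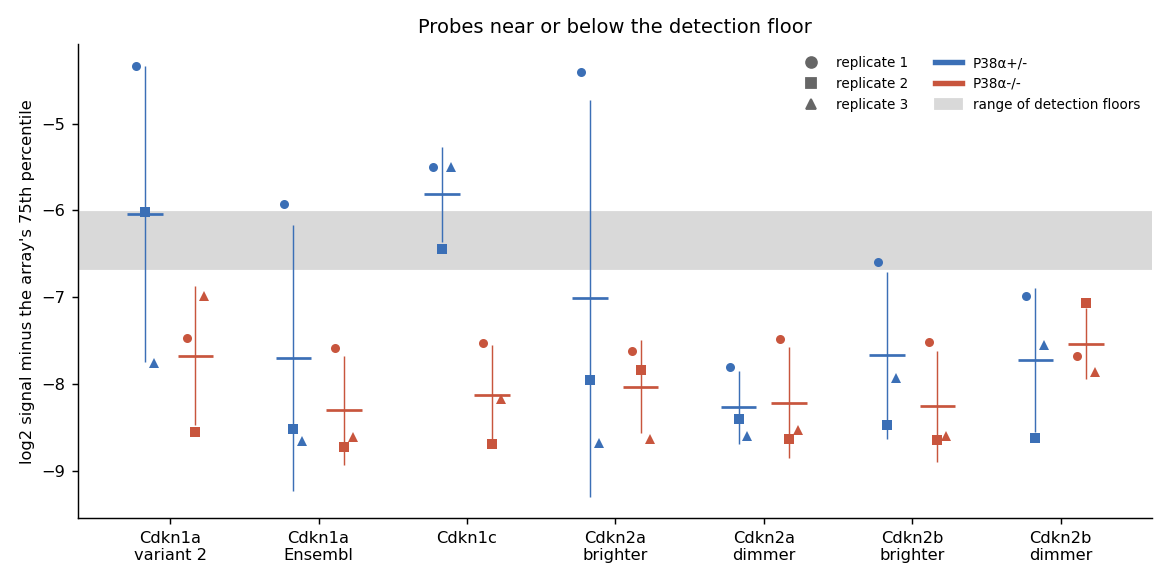
Log2 signal minus the array's 75th percentile for the 7 probes that were not tested, on each of the 6 arrays (shapes, replicates; horizontal bars, means; vertical bars, 1 SD, n = 3); the grey band spans the arrays' detection floors, -6.67 to -6.02. Cdkn1c separates the genotypes across the band, and P38α+/- replicate 1 is the highest P38α+/- array for all but Cdkn1c, where replicates 1 and 3 are level.

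Of the INK4 inhibitors, Cdkn2c and Cdkn2d were well detected, and Cdkn2a and Cdkn2b lay at background. Cdkn2d encodes p19INK4d, and it read 3.05, 3.37 and 3.48 in P38α+/- and 2.94, 3.22 and 3.02 in P38α-/-. The highest P38α-/- mouse, replicate 2, stood above 1 of the 3 P38α+/- mice. The log2 fold change was -0.24 (SE 0.18, interval -0.67 to 0.19, adjusted p = 0.483), and the P38α-/- mouse was lower in 3 of 3 pairs.

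Cdkn2c encodes p18, and its 3 P38α+/- values were nearly equal, at 0.29, 0.27 and 0.29. The P38α-/- mice read 0.15, 0.22 and 0.09, all below every P38α+/- mouse. This was the single tested member whose brightest probe separated the genotypes, 1 of 7, against a background of 19.7% of tested genes lower in this way, 7.43% higher and 27.2% either way. The difference was small, -0.13 (SE 0.14, interval -0.46 to 0.20, adjusted p = 0.63, exact permutation p = 0.1), and it was 0.03 above the median tested probe. Scaled on all probes the value turned to 0.35.

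Cdkn2a, the locus of p16INK4a and p19ARF, was well above background by its brighter probe in P38α+/- replicate 1 alone. That probe read -4.41, -7.95 and -8.69 in P38α+/- and -7.63, -7.84 and -8.64 in P38α-/-, and the second probe passed on no array. Cdkn2b, which encodes p15, passed on no array by either probe, with levels between -8.65 and -6.60. No fold is given where both genotypes lie below background. A low signal bounds what these probes could show and does not show that the transcripts were absent.

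The retinoblastoma family held a gene with close values in all mice, Rb1. It also held the single member probe with an unadjusted p under 0.05 in the reported fit, the variant 2 probe of Rbl1. Rb1 encodes RB, the main brake on E2F activity. Rb1 read 1.70, 1.54 and 1.54 in P38α+/- and 1.56, 1.76 and 1.64 in P38α-/-, with ranges that overlapped. The log2 fold change was 0.06 (SE 0.15, interval -0.29 to 0.41, adjusted p = 0.85), and a fold of 1.04 had an interval of 0.818 to 1.33. The Rb1 probe was printed on 10 spots, whose SD within an array was at most 0.06.

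Rbl1 encodes p107, the pocket protein of dividing cells. The variant 1 probe read -0.17, -0.21 and 0.25 in P38α+/- and -0.09, -0.18 and -0.04 in P38α-/-. All P38α-/- values lay inside the P38α+/- range. The log2 fold change was -0.06 (SE 0.18, interval -0.49 to 0.37, adjusted p = 0.878).

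The variant 2 probe of Rbl1, which reads a different stretch of the gene, behaved otherwise. It read -1.95, -2.66 and -2.97 in P38α+/- and -3.46, -3.27 and -3.36 in P38α-/-. Every P38α-/- mouse was below every P38α+/- mouse, and the P38α-/- mice lay close together. The means were -2.52 ± 0.52 and -3.36 ± 0.09 (SD, n = 3), a log2 fold change of -0.84 (SE 0.28, interval -1.50 to -0.18) with a limma p of 0.0208 that became 0.171 after adjustment over all tested probes. The level was 0.559-fold that of P38α+/-, with an interval of 0.353 to 0.885.

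That probe did not pass the threshold in any of the 16 alternatives, where the fold change ran from -1.06 to -0.36 and the adjusted p from 0.0844 to 0.852. Without P38α+/- replicate 1, the array with the most detected probes, it was -0.55 (adjusted p = 0.237). In all tested genes, 15.2% were lower at an unadjusted p of at most 0.05. The difference between both Rbl1 probes on the same array, which cancels the scaling, was -1.78, -2.45 and -3.21 in P38α+/- and -3.37, -3.10 and -3.32 in P38α-/-. P38α+/- replicate 3 fell inside the P38α-/- range, and the shift of -0.78 had an exact permutation p of 0.2. A different response of both transcripts was therefore not shown by these 6 arrays. The P38α+/- arrays also had higher neutrophil markers, as given above, and their part in this value was not tested.

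Rbl2 encodes p130, the pocket protein of resting cells. It read -3.79, -3.97 and -4.89 in P38α+/- and -3.81, -3.75 and -4.03 in P38α-/-. P38α+/- replicate 3 was the low array, and the other 5 spanned a narrow range in which the genotypes mixed. The log2 fold change was 0.36 (SE 0.31, interval -0.39 to 1.10, adjusted p = 0.548), and without P38α+/- replicate 3 it was 0.02 (adjusted p = 0.962). It was larger with quantile normalization (0.81, adjusted p = 0.229), in the authors' table (0.79, adjusted p = 0.194) and with scaling on all probes (0.84, adjusted p = 0.173), and smaller with normexp background correction (0.20, adjusted p = 0.885).

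Over the 6 arrays, the levels of Cdkn1b and Cdkn2d were the most alike among the 7 tested genes (Pearson's r = 0.70, and 0.85 for deviations from the genotype means). Cdkn1a went most closely with Rbl1 variant 1 within the genotypes (r = 0.91 for deviations, 0.64 over the levels), and Rbl2 ran opposite to Rbl1 (r = -0.97 and -0.93). These are descriptions of 21 gene pairs over 6 arrays, which share their scaling, and P38α+/- replicate 3 was both the highest array for Rbl1 variant 1 and the lowest for Rbl2. Between 2 and 5 of the 7 genes lay above their genotype mean on each array.

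Genes that the inhibitors and pocket proteins act on or are controlled by, and other CDK binding proteins, were described by 8 lists of 102 genes, 89 of them tested. Of these, 1 was called higher and 0 lower, their median log2 fold change was -0.04, and 57 of 89 lay above the median tested probe. The called gene was Gadd45g, a stress-induced partner of p21 and activator of MAP3K4, at -0.28, -0.18 and -0.42 in P38α+/- and 2.79, 2.56 and 2.74 in P38α-/- (log2 fold change 2.99, SE 0.15, adjusted p = 0.0101). Among the lists, 3 of 89 genes were higher and 9 lower at an unadjusted p of at most 0.05, against 4.85% and 15.2% of all tested genes. Without overlap between the genotypes, 6 of 89 were higher and 15 lower, against 7.43% and 19.7% of all tested genes. Gadd45a, a relative of Gadd45g, followed at 0.85 (SE 0.14), with an adjusted p of 0.0728. Gadd45b, named after its values were seen, was on the other side at -1.36 (SE 0.58), with overlapping genotypes. It was well above background on 3 P38α+/- but only 2 P38α-/- arrays and passed the detection filter only through P38α+/-, so no adjusted p is given for it.

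None of the 13 tested G1/S cyclins and CDKs was called, and their median was -0.06. Ccnd3, the D-type cyclin known to set how often erythroblasts divide, differed by -0.16 (log2 fold change, adjusted p = 0.555) and Ccne1 by -0.22 (adjusted p = 0.581). Ccnb2 of mitosis differed by -0.06, and all 3 stood above 0 when scaled on all probes. Ccna2, the S phase cyclin, was higher in all P38α-/- mice by 0.19 (adjusted p = 0.464). Cdk1, named after its values were seen and read by a dim probe, was lower in all P38α-/- mice (log2 fold change -1.16). Cdk1 was well above background on 3 P38α+/- but only 2 P38α-/- arrays. It passed the detection filter only through the genotype where it was higher, so no adjusted p is given for it. In this list 1 of 13 genes was higher and 1 lower without overlap.

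Of 8 tested E2F and DP factors, 0 were called, and 4 were lower without overlap, as were 19.7% of all tested genes. E2f2, an E2F abundant in erythroblasts, read 5.82, 5.71 and 5.72 in P38α+/- and 5.47, 5.31 and 5.46 in P38α-/- (log2 fold change -0.33, SE 0.14, adjusted p = 0.244). E2f8 (-0.39, adjusted p = 0.226), the DP subunit Tfdp2 (-0.49, adjusted p = 0.234) and E2f3 (-0.45, adjusted p = 0.256, named after its values were seen) were the others, and E2f1 differed by 0.04. Scaled on all probes, E2f2, E2f8 and E2f3 turned to values above 0. E2f4 and E2f5 were not tested.

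The replication genes that E2F factors switch on showed no call among 16, with a median of 0.00. Rrm2 of nucleotide synthesis was lower in all P38α-/- mice (-0.25, adjusted p = 0.38, but 0.24 when scaled on all probes), while Mcm6 (0.07), Mcm7 (-0.08) and Pcna (0.06) overlapped. The 9 tested markers of G2 and M phase had a median of 0.03, with no gene called or free of overlap, and Mki67 read 6.10, 6.01 and 6.16 against 5.99, 5.89 and 6.08. In both lists all genes but 1 lay above the median tested probe, 15 of 16 and 8 of 9.

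The remaining lists also held no called gene apart from Gadd45g. MuvB and pocket protein partners (12 tested) had a median of -0.22, with Rbbp4 (0.02), Mybl2 (0.07), Hdac1 (-0.04) and Rbbp7 (-0.17) the brightest. In this list 3 of 12 were lower and 0 higher without overlap, against 19.7% and 7.43% of all tested genes. The 3 were Lin52, Suv39h1 and Arid4a, named after their values were seen (-0.50, -0.48 and -0.53, and -0.02, 0.01 and -0.05 when scaled on all probes). Ubiquitin ligase subunits tied to the turnover of p21, p27 and p57 (10 tested) had a median of -0.13, with Fzr1 (0.07), Ddb1 (0.15), Rbx1 (-0.05) and Skp1 (0.11) the brightest. Ddb1 and Cul4a, the latter named after its values were seen, were higher without overlap (Cul4a 0.56, adjusted p = 0.151). They were 2 of 10, against 7.43% of all tested genes, and 0 were lower. For Ddb1 the lowest P38α-/- array read 2.897 and the highest P38α+/- array 2.892.

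Regulators of inhibitor transcription (12 tested) had a median of -0.17. The erythroid factors Gata1 (0.05) and Klf1 (0.21) and the factor Foxo3 (0.15) overlapped between genotypes. Ezh2, the methyltransferase that silences the Cdkn2a locus in many cells, was lower in all P38α-/- mice (-0.43, SE 0.18, adjusted p = 0.247), but stood at 0.06 when scaled on all probes. Foxo4, Bmi1, Cbx7 and Smad4, named after their values were seen, were also lower without overlap. In this list 5 of 12 genes were lower and 0 higher in this way, against 19.7% and 7.43% of all tested genes. Foxo4, Bmi1 and Cbx7 passed the detection filter through P38α+/- alone, the genotype where they were higher, so no adjusted p is given for them. Cbx7 passed on no P38α-/- array, and a bound put it at least 1.87-fold lower there. Smad4 was detected on all 6 arrays (adjusted p = 0.12). Among the other CDK binding proteins (9 tested, median 0.14), 3 were higher and 1 lower without overlap. Ccndbp1 was the lower one (-0.25, adjusted p = 0.4, but 0.24 when scaled on all probes), while Cdkn3 (0.00) and Cdk2ap1 (0.01) overlapped. Cdk2ap2, named after its values were seen, was higher without overlap (0.14, adjusted p = 0.634).

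**Figure D4:**
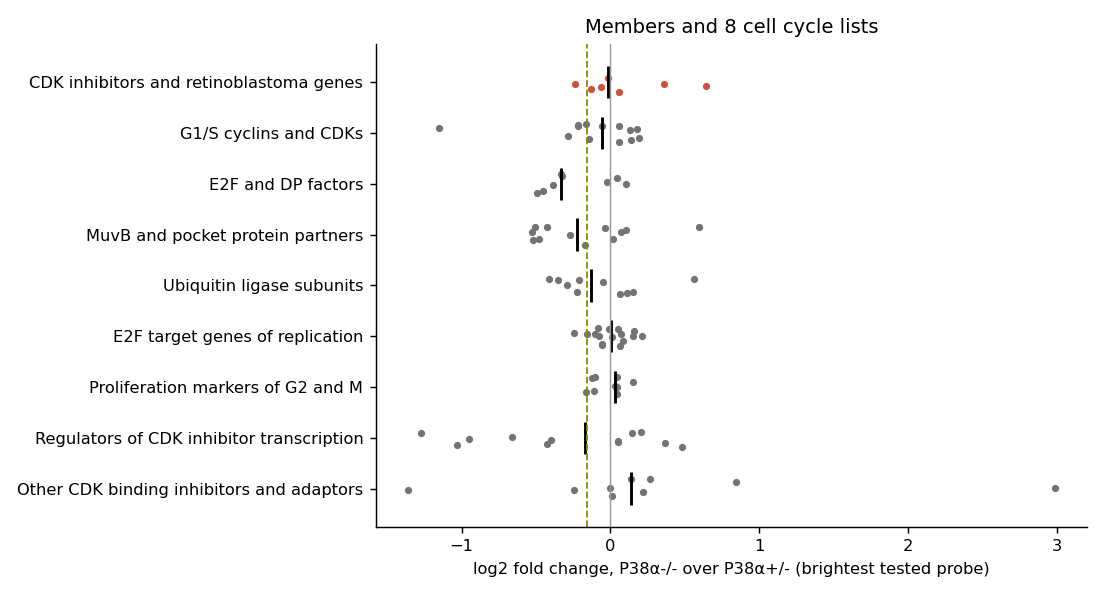
Log2 fold change of P38α-/- over P38α+/- by each gene's brightest tested probe, for the 7 tested members and the 8 cell cycle lists; black bars are list medians and the dashed line is the median tested probe at -0.16. Gadd45g, at 2.99, is the single called gene, and the members' median lies at -0.01.

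**Figure D5:**
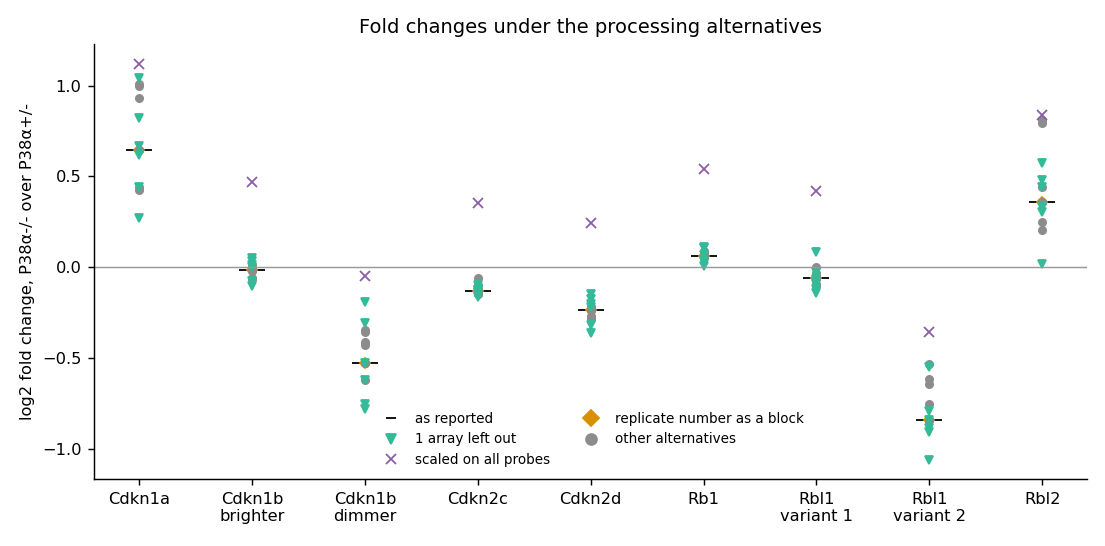
Log2 fold change of P38α-/- over P38α+/- of each tested probe as reported and under 16 processing alternatives. Cdkn1a, Rbl2 and Rb1 stay above 0 and Rbl1 variant 2 and the dimmer Cdkn1b probe below it throughout, and the crosses, with scaling on all probes, move up for every probe.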

How the data were processed

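Erythroblast RNA of 6 mice (3 P38α+/-, 3 P38α-/-) was hybridised to 6 Agilent 1-colour arrays. The deposited scanner files hold processed intensity values that the authors' scanning software, Feature Extraction 10.7.3.1, had background-corrected. The deposited value table holds normalized intensities, whose log2 was taken here. P38α-/- replicate 2 ranked differently from its scanner file (Spearman 0.8975 over all probes), and the others ranked alike (at least 0.9999). The scale and centring of the table are not given in the sources used here, and it served as an alternative only. Its column medians in linear units were 8.48 to 8.50.

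Control spots and outlier-flagged spots were left out, spots of a probe averaged, and log2 intensity reduced by a 75th percentile computed per array from the 15540 probes detected well above background on every array. limma 3.58.1 in R 4.3.3 (lmFit, eBayes, genotype only) tested 18785 probes of 14164 genes, two-sided, with Benjamini-Hochberg adjustment over all of them. A gene was counted by its brightest tested probe. Called means an adjusted p of at most 0.05 and a fold of at least 2. Exact permutation tests were two-sided over the 6 arrays. The code was tested on simulated data. A bound ("at least") sets the brighter genotype's mean against the dimmer one's mean with each dim value raised to its array's detection floor. Values of the brighter genotype enter as measured, so the bound is not strict where any of them was not well above background.

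The members and lists were chosen with earlier results of these data known. All 10 members were named by every probe, with Mapk14, at most the 4 brightest tested genes of each list and any called gene. Further list genes were named after their values were seen, as stated where they appear. Each mouse is a separate animal, and p-values measure the spread between these mice. The number of arrays limits the precision. Same-numbered samples deviated together (r = 0.393, 0.242 and 0.389, others at most 0.061). The series' design text speaks of pairs of mice, so the numbers were taken to pair the samples. The reported fit and the exact permutation tests nevertheless leave this pairing out. It entered only as the replicate block among the alternatives. Alternatives covered scaling, background, filter, block, weights and leaving out each array.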

Additional observations from a re-analysis of the deposited data

How the results depend on the processing

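The count of called members was 0 under all alternatives tried, also with all 10 genes tested without a filter on dim probes. In 134 of 144 cases a member probe kept its direction and stayed uncalled, and in no case did it become called. These cases include the detection filters, the replicate block and the methods' t-test, which cannot change the direction of a fold change. Scaling on all probes turned Cdkn1b (0.47), Cdkn2c (0.35), Cdkn2d (0.24) and Rbl1 variant 1 (0.42) above 0, since it raised the median tested probe to 0.32. Cdkn1b also turned to 0.014 with slide as a block and without P38α-/- replicate 3, which are the same fit, to 0.035 without P38α+/- replicate 2 and to 0.0493 without P38α-/- replicate 1 (-0.106 to 0.0493 over the arrays left out), and Rbl1 variant 1 to 0.000439 with array weights and to 0.0835 without P38α+/- replicate 3 (-0.143 to 0.0835). All lie within their SE of 0 except under scaling on all probes, where Cdkn1b, Cdkn2c and Rbl1 exceeded it.

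The count over all genes, 24, moved to 14 with quantile normalization, 654 (381 higher) with scaling on all probes, 10 in the authors' table, 0 without a filter, 56 with detection on all 6 arrays required, 53 (13 higher) with the replicate number as a block, 0 with slide as a block, 2 by the methods' t-test after adjustment, and 408 (139 higher) with array weights. Leaving out each array gave 0 to 84, 84 without P38α+/- replicate 3 and 0 without P38α+/- replicate 2 or any P38α-/- array. The count of called cell cycle genes, 1, became 2 with scaling on all probes (Gadd45g and Gadd45a), 3 with array weights (Gadd45g, Cdk1 and Smad4), and 0 without a filter, with slide as a block, and without P38α+/- replicate 2 or any P38α-/- array (range 0 to 1). Cdk1 had passed the detection filter only through P38α+/-. The cause of these changes in count was not tested. The replicate block changed no other call, and dim probes remain limited by signal over background.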
